A study of Mus musculus with 6 samples.

Results

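The genes described here are 8 mouse genes of DNA mismatch repair, oxidised base removal and direct reversal of base damage: Msh3, Msh6, Pms1, Pms2, Exo1, Mgmt, Mutyh and Ogg1. They were chosen by name for their known function, with earlier results of these data known though the rule itself uses no measured value, out of 19938 genes that the arrays measured by a probe set with 1 gene symbol. All 8 were measured, each by 1 probe set. Expression was measured in 6 colon tumours, 3 control and 3 hypomethylated. All mice carried ApcMin, a truncating Apc allele that gives rise to tumours of the intestine, and all carried the hypomorphic chip allele of Dnmt1, the gene of the enzyme that copies DNA methylation onto new strands. The other Dnmt1 allele was wild-type in the control tumours (Dnmt1chip/+; ApcMin/+) and the knockout allele c in the hypomethylated tumours (Dnmt1chip/c; ApcMin/+). The mice were hybrids of C57BL/6 and 129Sv4, received 2% (w/v) dextran sodium sulfate, which injures the colon and promotes tumours, from 6 weeks of age, and gave their tumours at 20 weeks. Both Dnmt1 alleles are germline alleles, so they act in every cell of the tumour and not in the epithelium alone. The comparison asks whether expression differs between tumours with lower and with control levels of DNA methylation, which was itself not measured here.

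Mismatch repair corrects bases that the replication machinery pairs wrongly and small loops that arise when it slips on repeats. A MutS complex, with MSH6 or MSH3 as one of its subunits, recognises the error. A MutL complex, with PMS2, PMS1 or MLH3 as one of its subunits, follows it, and the exonuclease EXO1 removes the faulty stretch so that it can be filled in again. OGG1 cuts out oxidised guanine, and MUTYH removes the adenine that replication places opposite it. MGMT works alone, by moving alkyl groups from guanine onto itself. In the human colon, inherited loss of mismatch repair genes or of MUTYH leads to tumours, and the MGMT promoter is often methylated in colorectal tumours.

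The values are on a log scale whose base, not stated, was taken to be 2. They are centred on each gene's median over the 6 arrays, so they give differences between tumours and no level, and no gene can be ranked above another by its value. Centring on a median of 6 also makes the 2 middle tumours of a gene mirror images around 0. In the descriptions 1 number is shared by all 3 hypomethylated tumours and another by 2 of the 3 control tumours, and nothing states how many mice gave the tumours. The p-values therefore cover tumour-to-tumour spread, and differences between individual mice and between genotypes cannot be told apart. Dnmt1 itself was lower by 0.87 on the log2 scale in the hypomethylated tumours, which does not check the genotypes, since its probes were not placed against the mutated stretches, and Apc did not pass the test (-0.23, SE 0.10; limma, adjusted p = 0.115). All 10 epithelial markers checked, such as Epcam and Krt8, were inferred, from the step size of the values, to have stood at 8 or higher in every tumour until the table was centred. In bulk tumour RNA, fewer cells of a type and less RNA per cell cannot be told apart.

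Of the 8 repair genes 5 fell in the hypomethylated tumours at an adjusted p under 0.05, and none rose. The 5 were Pms2, Pms1, Exo1, Msh3 and Ogg1 (limma, Benjamini-Hochberg adjusted over all 19938 genes). Without control tumour 1 the count was 3, Pms2, Pms1 and Msh3. Over all genes 21.3% were called lower, 10.7% higher and 32.0% in either direction, and the 8 genes are no random draw. The median difference of the 8 was -0.44 on the log2 scale, against -0.01 over all genes tested. Msh3, Msh6, Pms2, Exo1 and Ogg1 were inferred to have stood at 8 or above in every tumour before centring. A test of only the 10160 genes so inferred called 3817 lower and 1662 higher, with a median difference of -0.12. All 3 hypomethylated tumours lay below all 3 control tumours for 6 of the 8 genes, as they did for 28.5% of all genes; groups were apart in the other direction for 17.9%, and in either for 46.4%. The changes were small, between 1.22-fold and 1.53-fold among the 5 genes called.

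**Figure D1:**
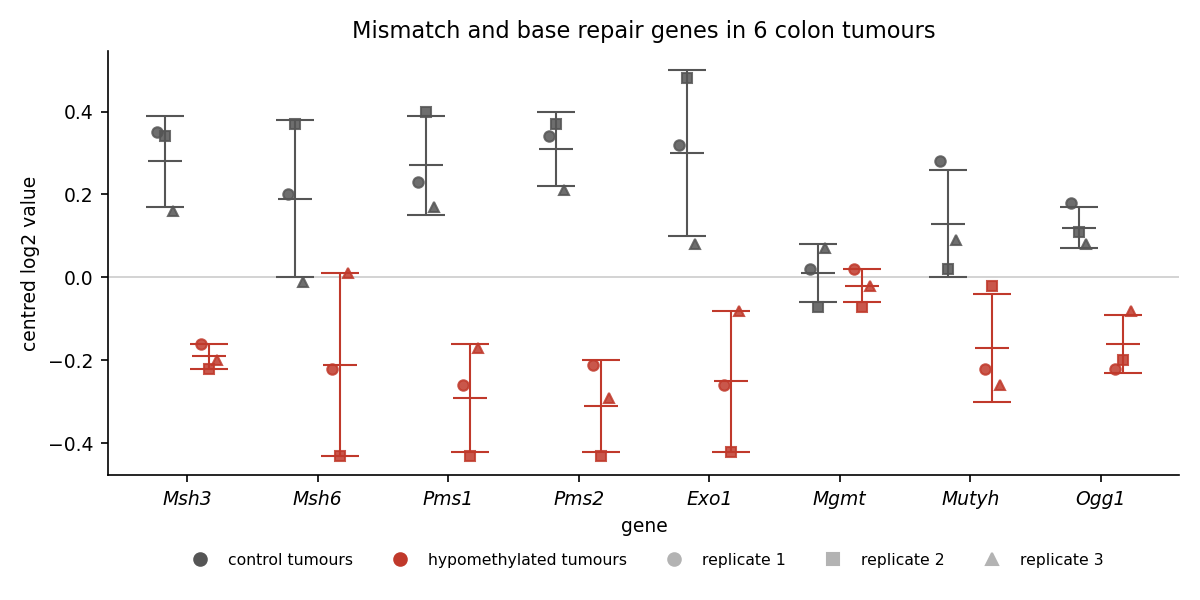
Centred log2 values of the 8 repair genes in each of the 6 tumours, with control tumours in grey and hypomethylated tumours in red; marker shape gives the replicate number and bars the group mean ± SD (n = 3). The groups are apart for Msh3, Pms1, Pms2, Exo1, Mutyh and Ogg1, by as little as 0.03 for Mutyh, and overlap for Msh6 and Mgmt.

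The mismatch recognition genes are shown first, with the promoter windows of both, because both carry letters of the kind bound by E2F factors, which drive genes of DNA replication. The windows run from 250 bases before to 50 bases after the annotated start (RefSeq, GRCm38.p6), written in the direction of the gene, and capitals mark a match to TTTCCCGC, TTTCGCGC, TTTGCCGC or TTTGGCGC on either strand. The Msh3 window lies at chr13:92354954-92355253 on the minus strand and the Msh6 window at chr17:87974800-87975099 on the plus strand.
Msh3: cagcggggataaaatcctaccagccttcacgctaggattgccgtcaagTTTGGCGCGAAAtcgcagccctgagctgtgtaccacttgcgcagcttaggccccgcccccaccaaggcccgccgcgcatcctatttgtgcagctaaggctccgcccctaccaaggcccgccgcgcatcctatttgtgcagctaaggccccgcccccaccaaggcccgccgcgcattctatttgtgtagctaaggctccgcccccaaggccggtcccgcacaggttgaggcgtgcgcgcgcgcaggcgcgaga
Msh6: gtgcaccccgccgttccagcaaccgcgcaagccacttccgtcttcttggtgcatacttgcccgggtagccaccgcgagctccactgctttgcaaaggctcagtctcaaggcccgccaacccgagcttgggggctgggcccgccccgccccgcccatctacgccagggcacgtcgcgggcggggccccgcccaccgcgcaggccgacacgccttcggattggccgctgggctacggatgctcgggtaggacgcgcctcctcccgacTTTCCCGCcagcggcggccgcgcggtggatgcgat
In Msh3 a TTTGGCGC on the gene's strand, starting 202 bases before the annotated start, overlaps a TTTCGCGC on the other strand. In Msh6 a single TTTCCCGC lies 16 bases into the transcribed part. Of all 32851 promoter windows of this length 2.26% hold at least 1 of the 4 motifs, and among the 7 repair genes with a window these 2 do. Each motif holds a CG, and the first windows of the 7 genes hold 19 to 37 CG against a median of 7. The 2.26% is therefore not matched for CG. The windows of Pms1 and Pms2 hold no match. Such a match is a description of the letters and not of binding.

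Msh3, whose protein directs the MutS complex chiefly to larger insertion and deletion loops, had centred log2 values of 0.35, 0.34 and 0.16 in control tumours 1, 2 and 3 and of -0.16, -0.22 and -0.20 in hypomethylated tumours 1, 2 and 3. The groups did not overlap, and the hypomethylated tumours lay within a narrow range. The mean was 0.28 ± 0.11 (SD, n = 3) for control and -0.19 ± 0.03 (SD, n = 3) for hypomethylated tumours. On the log2 scale Msh3 fell by 0.48 ± 0.07 (SE), to a level 28.1% lower (limma, adjusted p = 0.00289). Msh6, whose protein directs the complex to single mispaired bases and short loops, had values of 0.20, 0.37 and -0.01 among controls, against -0.22, -0.43 and 0.01 among hypomethylated tumours. Control tumour 3 and hypomethylated tumour 3 were nearly level, so the groups overlapped. The difference of -0.40 ± 0.14 (SE; 95% interval -0.73 to -0.08) did not pass the test (limma, adjusted p = 0.0644). It passed without control tumour 3 (adjusted p = 0.0424) and without hypomethylated tumour 3 (adjusted p = 0.0361), the tumours that meet near 0. With any other tumour left out it did not pass (limma, adjusted p up to 0.186).

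Msh3 passed and Msh6 did not, but the difference between them was itself small. The log2 value of Msh3 minus that of Msh6 was 0.15, -0.04 and 0.17 among controls, against 0.06, 0.21 and -0.22 among hypomethylated tumours, relative to the centring. The group means of this balance differed by -0.08 (exact permutation test, all 20 ways to split the tumours 3 and 3, two-sided, p = 0.7; adjusted over the 3 such comparisons made, 0.9). The smallest p this test can give is 0.1, so it could not have called a shift of any size in these balances.

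Among the genes that act after recognition Pms2 had the largest fall of the 8. Its protein carries the endonuclease activity of the main MutL complex, which nicks the strand to be replaced. Its promoter window, at chr5:143909751-143910050 on the plus strand, is shown with CG dinucleotides, the sites that DNMT1 keeps methylated, in capitals, for comparison with that of Mgmt further on.
Pms2: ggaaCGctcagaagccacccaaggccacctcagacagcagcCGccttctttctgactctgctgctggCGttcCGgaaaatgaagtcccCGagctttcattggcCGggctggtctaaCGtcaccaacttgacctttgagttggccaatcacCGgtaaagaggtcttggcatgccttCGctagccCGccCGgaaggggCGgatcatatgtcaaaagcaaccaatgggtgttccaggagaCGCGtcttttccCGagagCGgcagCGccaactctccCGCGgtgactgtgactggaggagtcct
The window holds 19 CG dinucleotides, and 28.1% of all windows hold at least as many. Pms2 values were 0.34, 0.37 and 0.21 among controls, against -0.21, -0.43 and -0.29 among hypomethylated tumours. The gap of 0.42 between the groups was the widest of the 8 genes. On the log2 scale Pms2 fell by 0.62 ± 0.08 (SE), to a level 34.8% lower (limma, adjusted p = 0.00177). Its group means were 0.31 ± 0.09 and -0.31 ± 0.11 (SD, n = 3 each).

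Pms1, whose product forms another MutL complex with a less clear part in repair, also fell. Its values were 0.23, 0.40 and 0.17 among controls, against -0.26, -0.43 and -0.17 among hypomethylated tumours. The groups were 0.35 apart, and the difference was -0.56 ± 0.09 (SE), 1.47-fold (limma, adjusted p = 0.00447). The balance of Pms1 over Pms2 changed by 0.06 between the groups (exact permutation test, two-sided, p = 0.5; adjusted over 3 comparisons, 0.9). Exo1 had values of 0.32, 0.48 and 0.08 among controls, against -0.26, -0.42 and -0.08 among hypomethylated tumours. It varied more within groups, with SDs of 0.20 and 0.17, and the groups came within 0.16 of each other. The fall of Exo1 was 0.55 ± 0.13 (SE), 1.46-fold (limma, adjusted p = 0.015), and the call was lost without control tumour 1 (adjusted p = 0.0537).

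The glycosylase genes of oxidised guanine repair differed less in size. Ogg1 had values of 0.18, 0.11 and 0.08 among controls, against -0.22, -0.20 and -0.08 among hypomethylated tumours. The groups did not overlap, and Ogg1 fell by 0.29 ± 0.06 (SE), a level 18.1% lower (limma, adjusted p = 0.0119); without control tumour 1 its adjusted p was 0.059. Mutyh had values of 0.28, 0.02 and 0.09 among controls, against -0.22, -0.02 and -0.26 among hypomethylated tumours. Control tumour 2 and hypomethylated tumour 2 were separated by only 0.03, and the difference of -0.29 ± 0.10 (SE; 95% interval -0.52 to -0.07) did not pass (limma, adjusted p = 0.0539). It passed without hypomethylated tumour 2 (adjusted p = 0.0328), but not with any other tumour left out (limma, adjusted p up to 0.171). The balance of Mutyh over Ogg1 changed by -0.01 between the groups, with group SDs of 0.10 and 0.18 (exact permutation test, two-sided, p = 0.9, and 0.9 adjusted over 3 comparisons).

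Mgmt stood at the other end of the 8. Its values were 0.02, -0.07 and 0.07 among controls, against 0.02, -0.07 and -0.02 among hypomethylated tumours, and the groups lay over each other. The difference was -0.03 ± 0.06 (SE; limma, adjusted p = 0.772). The 95% interval, -0.17 to 0.11, corresponds to a level between 0.888 and 1.08 times that of the control tumours. Whether Mgmt was well above the array's background is not known, because the centred table keeps no level and the step size did not place its values at 8 or higher. The window at the first annotated Mgmt start, chr7:136894336-136894635 on the plus strand, is shown with CG dinucleotides in capitals.
Mgmt: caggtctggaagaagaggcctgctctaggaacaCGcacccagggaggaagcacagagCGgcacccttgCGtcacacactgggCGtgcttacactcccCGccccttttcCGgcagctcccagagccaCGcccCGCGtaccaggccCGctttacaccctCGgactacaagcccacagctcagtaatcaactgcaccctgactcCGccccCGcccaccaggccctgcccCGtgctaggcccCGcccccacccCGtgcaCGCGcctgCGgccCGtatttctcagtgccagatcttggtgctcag
It holds 20 CG dinucleotides, close to the 19 of Pms2, whereas a window at a later annotated start of Mgmt holds 3; the median over all windows is 7. Among the other genes the count was 37 in Msh6, 31 at the first start of Mutyh, 29 in Msh3 and 25 in both Pms1 and Ogg1. The methylation of these windows in the tumours was not measured.

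For single genes the exact permutation test over tumours, two-sided, gave p = 0.1 for the 6 genes whose groups did not overlap, the smallest that 3 against 3 allows, and 0.133 when adjusted over the 8 genes. This exact test gave p = 0.2 for Msh6 and p = 0.6 for Mgmt (0.229 and 0.6 adjusted). With 3 tumours a group it cannot reach 0.05.

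Several repair genes share a promoter region with a gene that runs the other way. By a rule that takes genes with a start on the other strand within 1000 bases, Pms1 lies head to head with Ormdl1, a regulator of sphingolipid synthesis, Pms2 with Aimp2, a scaffold of the aminoacyl-tRNA synthetase complex, and Mutyh with Toe1, a deadenylase of small nuclear RNAs. The annotated starts were 67, 162 and 175 bases apart for Ormdl1, Aimp2 and Toe1.

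Toe1 fell by 0.45 ± 0.07 (SE; limma, adjusted p = 0.00436), with values of 0.30, 0.22 and 0.15 among controls, against -0.19, -0.35 and -0.15 among hypomethylated tumours. Aimp2 differed by -0.20 ± 0.07 (adjusted p = 0.0722 in limma) and Ormdl1 by -0.23 ± 0.13 (adjusted p = 0.235 in limma), and neither passed. The change of Pms2 exceeded that of Aimp2 by 0.42 on the log2 scale, with Pms2 minus Aimp2 between 0.19 and 0.29 in the control tumours and between -0.29 and 0.01 in the hypomethylated tumours. That gap gave p = 0.1 in the exact permutation test, the smallest possible, and 0.3 adjusted over the 3 neighbour comparisons, which were chosen after the values were seen. Pms1 and Ormdl1 differed in their change by -0.33 (exact p = 0.2, adjusted 0.3) and Mutyh and Toe1 by 0.16 (exact p = 0.5, adjusted 0.5). The test could not have called any of these differences at 0.05.

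**Figure D2:**
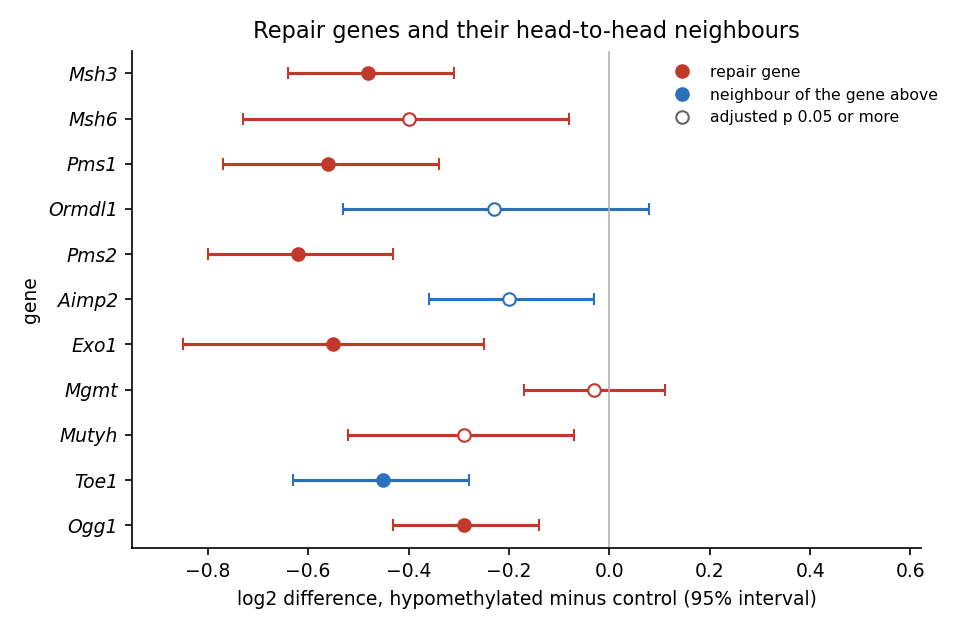
Log2 difference between hypomethylated and control tumours for the 8 repair genes (red) and for the measured head-to-head neighbours (blue, under the gene they face), with 95% intervals from limma; open circles have an adjusted p of 0.05 or more. Pms2 lies at -0.62 and its neighbour Aimp2 at -0.20, while Mutyh lies at -0.29 and its neighbour Toe1 at -0.45.

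Of 18 partners in mismatch repair, which load the sliding clamp, coat single strands, fill the gap and seal it, 11 fell and none rose, with a median difference of -0.40. Over all genes 21.3% were called lower and 10.7% higher. Of the 18 partners 16 were inferred to have stood at 8 or above in every tumour before centring. Rfc4 and Rfc3, subunits of the clamp loader, fell by 0.91 ± 0.11 and 0.81 ± 0.10 (SE; limma, adjusted p = 0.00132 and 0.00137). Rfc4 had values of 0.50, 0.52 and 0.33 among controls, against -0.33, -0.68 and -0.37 among hypomethylated tumours, a wider gap than for any of the 8 repair genes. Mlh3, a MutL subunit, fell by 0.57 and Rpa1, the large subunit of the single-strand binding complex, by 0.53. The 7 partners that did not pass included Msh4 (0.00) and Msh5 (0.09), whose proteins act in meiotic recombination, and Pold4 (0.18), the smallest subunit of DNA polymerase delta. The rest of the 7 all lay below 0, namely Rpa3 (-0.26), Pold2 (-0.21), Hmgb1 (-0.13) and Pold3 (-0.06).

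Of 20 measured partners in base repair and direct reversal 10 fell and none rose, with a median difference of -0.24. The share called lower over all genes was 21.3%, and 15 of these 20 were inferred to have stood at 8 or above before centring. Neil3, a glycosylase of oxidised bases, fell by 0.73 ± 0.14, with values of 0.39, 0.58 and 0.13 among controls, against -0.45, -0.51 and -0.13 among hypomethylated tumours. Parp1, a sensor of strand breaks, fell by 0.68, its relative Parp2 by 0.37, and Apex1, which cuts the strand at the site a glycosylase leaves empty, by 0.60. Mbd4, a glycosylase that acts on mismatches at methylated CG sites and was singled out after its value was seen, fell by 0.36 ± 0.06 (limma, adjusted p = 0.00522). Of the 10 that did not pass, the glycosylase genes were Neil1 (-0.07), Neil2 (0.07), Nthl1 (-0.13) and Smug1 (-0.10). The others were Fen1 (-0.27), Apex2 (-0.26), Aptx (-0.19), Nudt1 (0.06) and the direct reversal genes Alkbh2 (0.03) and Alkbh3 (-0.12). Alkbh2 and Alkbh3, like Mgmt, remove alkyl groups without cutting the strand, a grouping made after the values were seen and not tested. Mpg, a glycosylase gene of the same list, fell by 0.36 ± 0.06 (limma, adjusted p = 0.00339). Without control tumour 1 or control tumour 2 the number of base repair partners called lower was 6.

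**Figure D3:**
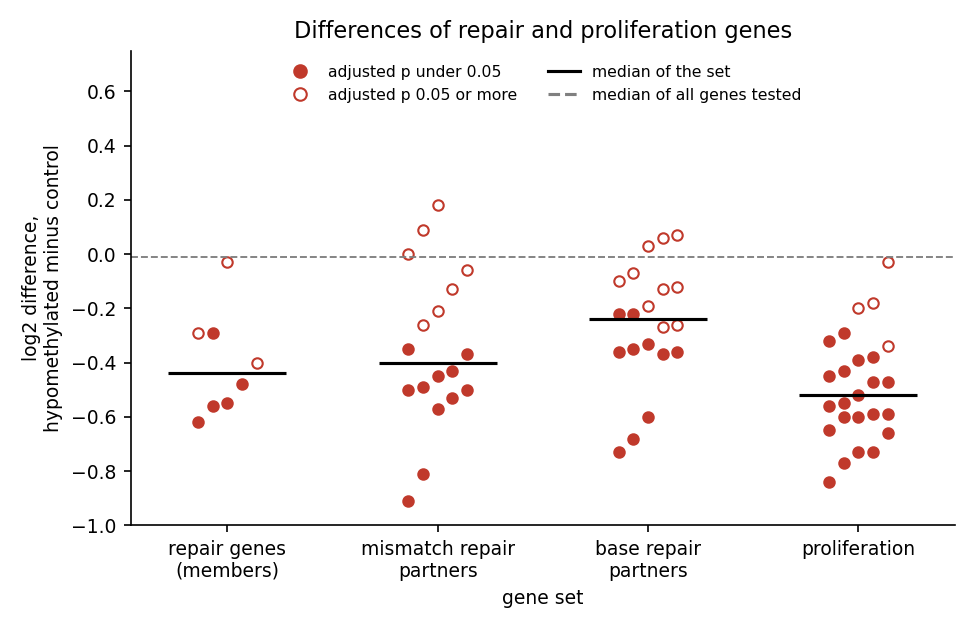
Log2 difference between hypomethylated and control tumours for each of the 8 repair genes and for the measured members of 3 lists; filled circles have an adjusted p under 0.05 (limma), black lines are list medians and the dashed line is the median of all genes tested. List medians are -0.44, -0.40, -0.24 and -0.52, with no filled circle above 0.

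Many of these genes are known to be expressed with DNA replication, and proliferation genes were lower in the same tumours. The share called lower over all genes was 21.3%. Of 25 measured proliferation genes 21 fell and none rose, with a median difference of -0.52; those with the largest falls were the spindle checkpoint gene Bub1 (-0.84), the replication initiation gene Gins1 (-0.77), the helicase gene Mcm2 (-0.73) and the transcription factor gene E2f1 (-0.73). The 4 that did not pass were Mki67, the gene of the Ki-67 antigen (-0.20), the topoisomerase gene Top2a (-0.18), the cyclin gene Ccne2 (-0.34) and the survivin gene Birc5 (-0.03). Of the 25 genes 24 were inferred to have stood at 8 or above in every tumour before centring. The mean of the list was 0.26, 0.34 and 0.11 in control tumours 1, 2 and 3 and -0.30, -0.36 and -0.11 in hypomethylated tumours 1, 2 and 3. The median of the 8 repair genes was 0.25, 0.35 and 0.09, and -0.22, -0.32 and -0.13, so both were highest in control tumour 2 and lowest in hypomethylated tumour 2, and closest to 0 in the tumours numbered 3. The part of proliferation in the fall of the repair genes was not tested. Among all genes the 3 whose 6 values lay nearest to those of Pms2 were Mcm7, a subunit of the replicative helicase, 0610010F05Rik, and Tia1, an RNA-binding protein gene. Their root mean square differences from Pms2 over the 6 tumours were 0.018, 0.020 and 0.027 on the log2 scale, against a median of 0.33 over all genes. As the nearest of all genes over only 6 values, they lie far below that median by selection, and a link to Pms2 was not tested. Pms1 ranked 124 by this measure, Msh3 478, Exo1 706, Msh6 1999, Ogg1 2739, Mutyh 4361 and Mgmt 8020.

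**Figure D4:**
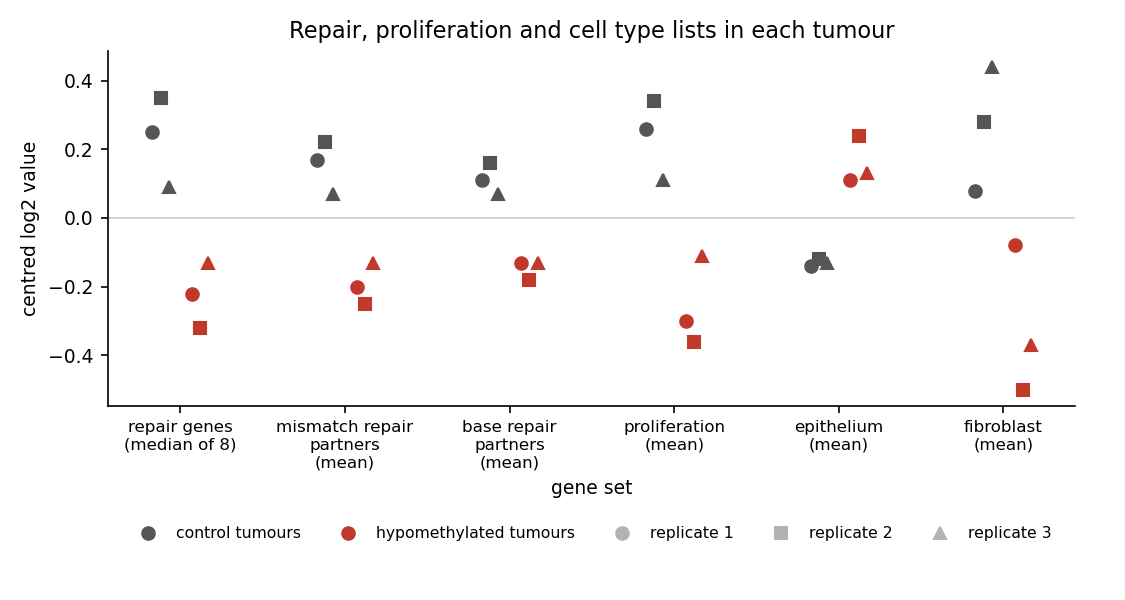
Median centred log2 value of the 8 repair genes and mean of 5 lists in each tumour, with control tumours in grey, hypomethylated tumours in red and marker shape giving the replicate number. Repair and proliferation genes place the tumours in a similar order, from control tumour 2 (0.35 and 0.34) to hypomethylated tumour 2 (-0.32 and -0.36).

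Markers of cell types also differed between the groups, which does not tell cell numbers from RNA per cell. For comparison, 21.3% of all genes were called lower and 10.7% higher. Of 10 epithelial markers 7 rose and none fell, with list means from -0.14 to -0.12 in the control tumours and from 0.11 to 0.24 in the hypomethylated tumours. The 3 epithelial markers that did not pass were Epcam (0.06), Krt18 (-0.02) and Cldn4 (-0.21). Of 10 fibroblast markers 6 fell and 1 rose (means 0.08 to 0.44 against -0.50 to -0.08), of 7 smooth muscle markers 4 fell (0.14 to 0.38 against -0.41 to -0.13), of 8 endothelial markers 4 fell and 1 rose (0.06 to 0.17 against -0.42 to -0.05), and of 7 macrophage markers 4 fell (0.00 to 0.53 against -0.91 to 0.02). Of 8 T and NK cell markers none passed (-0.13 to 0.13 against -0.11 to 0.44), and of 5 measured B cell markers 1 rose (-0.13 to 0.17 against 0.01 to 0.56). Fibroblast, smooth muscle and macrophage markers were highest in control tumour 3, the control tumour in which Msh3, Msh6, Pms1, Pms2, Exo1 and Ogg1 were lowest. The same marker lists were lowest in hypomethylated tumour 2 (means of -0.50, -0.41 and -0.91), in which 5 of the 8 repair genes were lowest too. The part of cell makeup in the differences of the repair genes was not tested, and no marker can be given as absent, since the table keeps no level.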

How the data were processed

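Total RNA of the 6 tumours (RNeasy Plus extraction and biotin labelling, per the labels' protocols) was run on Affymetrix mouse Gene 1.0 ST arrays, the type some sample descriptions name. The authors deposited 1 table of log2 values for 28856 probe sets, taken as base 2 from the values; 100% of the probe sets are centred on their median (tolerance 1e-06). How arrays were normalized and probes summarised is not given in the sources used here. Arrays carry no counts, and their number limits the precision.

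Probe sets with 1 gene symbol in the platform annotation (21789) were averaged per gene, and symbols were updated by Entrez number to RefSeq names (19856 of 19938 genes matched). Genes were tested with limma 3.58.1 in R 4.3.3 (lmFit and eBayes without a trend, two-sided, Benjamini-Hochberg over all genes, threshold 0.05), on all 6 tumours and with no covariate, and single values with exact permutation tests. SE and intervals come from limma. The scripts were tested on simulated data.

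The 8 genes and the 10 lists were chosen with earlier results of these data known. Besides the 8 genes, those named are the head-to-head neighbours, the 4 called genes of each partner and proliferation list with the largest difference, the 3 genes most like Pms2, Dnmt1 and Apc; other members of the lists, Mbd4 among them, were named after their values were seen. Probe sets on the coarser step of the values (47.6%) were taken to have been at 8 or above before centring, which can also arise by chance. Alternatives were a replicate block, quantile normalization, array centring, array weights, robust eBayes, the number in the descriptions as a random block, probe sets of several genes, a filter on high values, other thresholds and leaving out each tumour. Promoter windows come from RefSeq (GRCm38.p6), and Exo1 was not matched.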

Additional observations from a re-analysis of the deposited data

How the results depend on the processing

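Pms1, Pms2 and Msh3 kept their direction and their calls under every alternative in which they were tested, and 216 of 237 alternative values of the 16 limma results kept direction and side of the threshold, or a count within 1.5 times. The 16 include the counts of genes called higher, which were 0 in the main fit, and Mgmt, which was far from the threshold. Such results could hardly change, so the 216 overstate how firm the calls are. Leaving out each tumour in turn gave differences of -0.66 to -0.46 for Exo1, -0.33 to -0.26 for Ogg1, -0.51 to -0.29 for Msh6 and -0.37 to -0.22 for Mutyh, and 3 to 6 of the 8 genes called lower, 3 without control tumour 1. Base repair partners called lower then numbered 6 to 10. The balance of Msh3 over Msh6 ranged from -0.17 to 0.04, turning sign without hypomethylated tumour 3, and that of Mutyh over Ogg1 from -0.10 to 0.08, turning sign without control tumour 1 (0.04) or hypomethylated tumour 3 (0.08).

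With the replicate block Exo1 (-0.55, adjusted p = 0.0593) and Ogg1 (-0.29, adjusted p = 0.0625) lost their calls, which left 3 repair genes and 5 base repair partners called lower, and 4257 genes in all against 6380. Whether the numbers in the titles pair the tumours cannot be settled from 3 tumours a group. Deviations of same-numbered tumours from their group means correlated between -0.311 and -0.221, and 0 of 6 tumours correlated best with its own number. Array weights called Msh6 (-0.36, adjusted p = 0.0355), Mutyh (-0.43, adjusted p = 0.00884) and 1 higher mismatch repair partner, and gave control tumour 1 a weight of 7.69 against 0.515 to 0.986 for the others. The number in the descriptions as a random block called Msh6 (-0.41) and Mutyh (-0.30), with a consensus correlation of -0.166, so it made the test no stricter. In a test of only the 10160 genes at 8 or above before centring Msh6 passed (-0.40, adjusted p = 0.0435), while Pms1, Mgmt and Mutyh fell outside the filter. At an adjusted p under 0.01 the lower genes numbered 3 of the 8, 7 mismatch repair partners and 5 base repair partners. Except where a setting itself sets it, the cause of these changes was not tested.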
